A study of Mus musculus with 4 samples.

Results

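The genes described here form a module of proliferation, 40 genes whose transcripts are made in abundance while a cell copies its DNA or divides. The members were chosen by symbol as known cell cycle genes and not by a limit on measured values, 17 for S phase and 23 for G2 and M phase. All 40 were found in both gene lists, among 32285 genes. Each member was read as unique molecular identifiers (UMIs, counted molecules) in single cells, and the score of a cell was the percentage of its RNA UMIs that belonged to members.

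The cells came from femurs and tibias of 2 mice, 1 young mouse of 6 months and 1 old mouse of 24 months. Both were untreated INK-ATTAC mice on a C57BL/6N background, a line whose transgene places a FLAG-tagged inducible caspase 8 behind a fragment of the p16 promoter, so the young mouse carries the transgene as well. Bone and marrow digests were depleted of cells bearing blood lineage markers (CD5, B220, CD11b, Gr-1, 7-4 and Ter-119), stained with a CD24 antibody that carries an oligonucleotide, and sorted for CD45-SYTOX- cells, where SYTOX marks dead cells. CITE-seq then gave 1 antibody count beside the RNA of each barcode. With 1 mouse per age, age and animal cannot be told apart, and no test between the ages was possible. The depletion and the sort set which blood cells were left.

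Barcodes with at least 200 genes and at most 20% mitochondrial UMIs were kept, 10063 in the young and 5607 in the old library. They held 81076421 and 66702846 RNA UMIs, with medians of 6385 and 9711 UMIs per barcode, so the old cells were deeper. Members took 131702 UMIs (0.162%) of the young and 121116 UMIs (0.182%) of the old library. The libraries shared 19 kept barcodes, and 269 young and 57 old barcodes were predicted doublets, which were kept. Intervals below are exact 95% intervals and cover counting error alone.

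Cells enter the cycle when cyclin D and cyclin E kinases release E2F factors from the retinoblastoma protein, and E2F then switches on the genes that load and fire replication origins. Genes of G2 and M phase are held back by the DREAM complex at CHR elements and are raised later by B-Myb, FOXM1 and NF-Y, which binds CCAAT boxes. In marrow, erythroid precursors and pro- and pre-B cells divide rapidly while they mature, whereas most stromal and bone-lining cells of an adult divide seldom. CD24 is a surface protein of B-lineage and erythroid cells that also appears on some skeletal cells, and its antibody count is the division of cells that the study asked about.

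The promoters of the module show how its S and G2M members differ in sequence. In the RefSeq promoter table (GRCm38.p6, from 250 bases before to 50 after each start), 34 of 40 members had a window, 14 of S and 20 of G2M, beside 27025 genes in all. The 14 S genes had 16 windows, and a gene was counted if any of its windows held the word. An E2F-like word (TTTCGCGC, TTTGGCGC, TTTCCCGC or TTTGCCGC, either strand) lay in 6 of 14 S genes (42.9%), in 1 of 20 G2M genes and in 2.60% of all genes. Those S members were Cdc6, Mcm3, Mcm5, Mcm6, Mcm7 and Uhrf1, and the G2M member was Cdk1. A CHR word (TTTGAA or TTCGAA, either strand) lay in 15 of 20 G2M genes (75%), in 3 of 14 S genes (21.4%) and in 21.7% of all genes. CCAAT, on either strand, lay in 11 of 14 S and 17 of 20 G2M genes, against 41.1% of all genes. These words are descriptions of letters, and none was tested as a binding site. The 250 bases before the start are shown for Mcm7, a subunit of the replicative helicase, and for Mki67, which encodes the Ki-67 protein that coats mitotic chromosomes, as the S member with an E2F-like word and the G2M member with a CHR word that had most UMIs. Both genes lie on the minus strand, and the sequences read 5' to 3' on that strand. Capitals mark every E2F-like, CHR and CCAAT word. The Mcm7 bases shown hold 1 E2F-like word (GCGGGAAA, read from the other strand), 1 CHR word and 2 CCAAT boxes, all of the latter as ATTGG. Outside these bases Mcm7 had another E2F-like word (TTTCGCGC) and further CCAAT boxes. The Mki67 window holds 2 CHR words and 3 CCAAT boxes.
Mcm7, chr5:138171884-138172133: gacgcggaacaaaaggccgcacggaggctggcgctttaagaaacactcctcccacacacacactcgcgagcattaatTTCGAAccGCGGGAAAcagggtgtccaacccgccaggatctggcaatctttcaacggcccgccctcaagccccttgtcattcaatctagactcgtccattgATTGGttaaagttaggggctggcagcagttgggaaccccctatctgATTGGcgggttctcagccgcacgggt
Mki67, chr7:135716380-135716629: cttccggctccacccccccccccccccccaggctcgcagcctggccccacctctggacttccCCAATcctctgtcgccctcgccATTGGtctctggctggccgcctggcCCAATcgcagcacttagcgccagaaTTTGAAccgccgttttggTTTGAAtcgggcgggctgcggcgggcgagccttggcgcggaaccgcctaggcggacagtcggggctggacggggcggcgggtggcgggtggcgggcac

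Cells were grouped by marker UMIs that include no member. A barcode was called erythroid with at least 3 of 10 erythroid genes (such as Klf1, Epor and Slc4a1), B-lineage with at least 3 of 10 B-lineage genes (such as Cd79a, Vpreb1 and Pax5), and progenitor with at least 3 of 8 progenitor genes (such as Kit, Myb and Gata2) and neither of the former. Mesenchymal barcodes had at least 1% of their RNA UMIs in 18 genes such as Col1a1, Dcn, Lepr and Cxcl12. This gave 582 erythroid, 372 B-lineage, 10 progenitor and 8410 mesenchymal barcodes in the young mouse, and 472, 62, 11 and 4369 in the old mouse. Another 78 young and 36 old barcodes passed the limits of mesenchyme and of blood, or of both erythroid and B-lineage cells, and 611 and 657 passed none of the limits. The marker lists were fixed beforehand, but these limits were chosen after the marker UMIs had been seen.

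The labels held in part when checked against other markers. At least 3 of 8 further erythroid genes, hemoglobins among them, were found in 356 of 582 young (61.2%) and 401 of 472 old erythroid barcodes (85.0%). Among erythroid barcodes with at least 3 progenitor genes they were found in 75 of 287 young and 76 of 138 old ones. Mesenchymal barcodes had them in 3.71% and 9.20%. For erythroid barcodes without them the name rests on the genes that set the group. At least 3 of 8 further B-lineage genes were found in 90.3% of B-lineage barcodes of either mouse. In the old mouse 12 of 62 B-lineage barcodes also had at least 3 of 4 plasma cell genes, against 1 of 372 in the young mouse. The progenitor group is small and mixed, since 7 of 10 young and 4 of 11 old barcodes had at least 3 megakaryocyte genes. At least 3 of 8 further progenitor genes were found in only 2 of 10 young and 1 of 11 old barcodes of this group. Its name thus rests on the genes that set it. Most barcodes with progenitor markers fell in the erythroid group instead, 287 of 325 in the young and 138 of 153 in the old mouse.

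Member RNA was concentrated in the erythroid group. Erythroid barcodes were 5.78% of the young and 8.42% of the old kept barcodes, yet they held 61.6% and 77.2% of all member UMIs. B-lineage barcodes were 3.70% and 1.11% of the cells and held 16.7% and 3.36% of member UMIs. Mesenchymal barcodes were 83.6% and 77.9% of the cells and held 14.6% of member UMIs in either mouse.

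Levels are given in CPM, counts scaled to a common total of RNA UMIs, so that 10000 CPM is 1% of the RNA UMIs of a group. All members together stood at 6328 CPM (6285 to 6372) in young and 8311 CPM (8258 to 8364) in old erythroid cells. In B-lineage cells they stood at 10833 CPM (10691 to 10977) and 3424 CPM (3319 to 3531). In mesenchymal cells they stood at 314 CPM (309 to 318) and 358 CPM (353 to 364). Mesenchymal cells were lowest in both mice. B-lineage cells lay above erythroid cells in the young mouse and below them in the old. Without the 12 old barcodes with plasma cell genes, a step chosen after seeing the data, old B-lineage cells stood at 8402 CPM (8136 to 8674), which overlaps the old erythroid level. Progenitor barcodes stood at 4138 and 3282 CPM. Among barcodes of no group, those with neutrophil genes (141 and 343) stood at 246 and 414 CPM and those with megakaryocyte genes (59 and 46) at 1027 and 462 CPM. The neutrophil level lies near that of mesenchymal cells.

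Taken whole, the mesenchymal group had a larger share of S members than the erythroid and B-lineage groups. S members made up 44.6% of member UMIs in young and 42.8% in old erythroid cells, and 38.8% and 40.9% in B-lineage cells. In mesenchymal cells S members made up 80.0% and 67.2%, at 251 and 241 CPM, while G2M members stood at 62.7 and 118 CPM. A pair of S members carried much of it. Pcna, the sliding clamp of DNA polymerase, stood at 62.8 and 59.1 CPM in mesenchymal cells. Slbp, which binds the stem loop of histone mRNA, stood at 73.4 and 65.2 CPM there. Both had like levels in neutrophil-marker barcodes, Pcna at 46.0 and 44.0 CPM and Slbp at 62.1 and 48.1 CPM, whose part in the mesenchymal values was not tested. S members made up 59.8% and 37.5% of member UMIs in those barcodes. The share also varied within groups. In the lowest quartile of antibody count it was 57.0% and 59.2% in erythroid cells and 90.1% and 57.9% in mesenchymal cells.

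**Figure D1:**
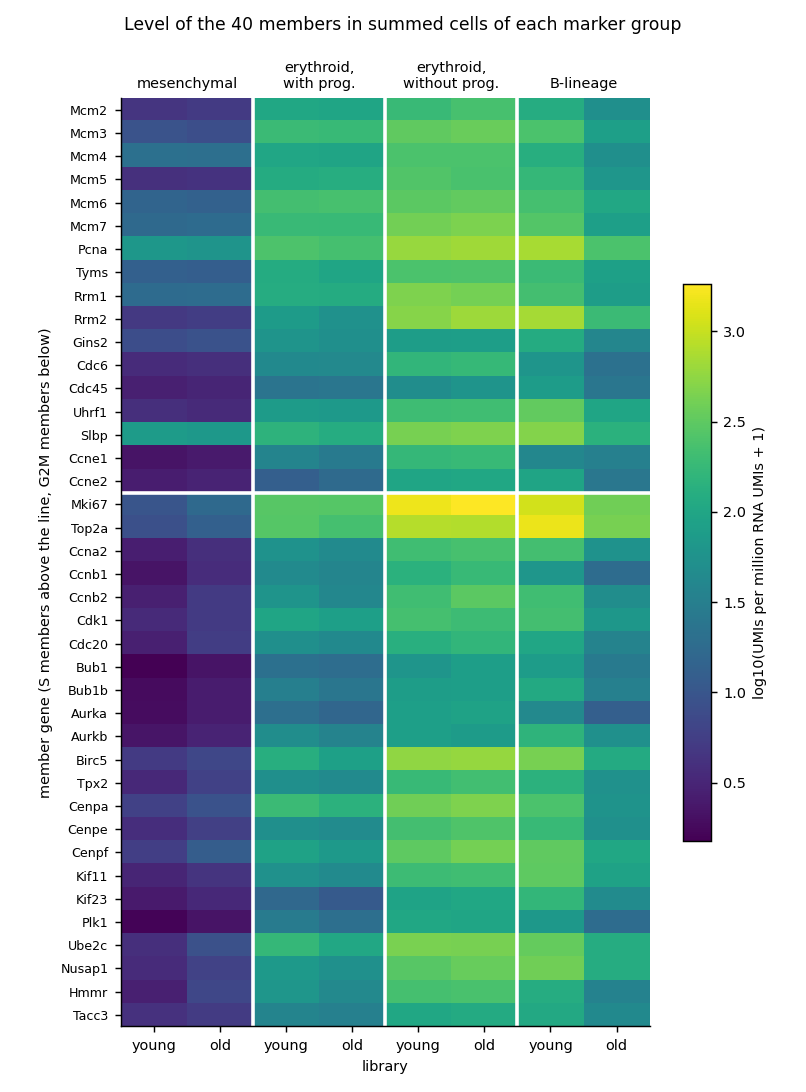
Level of each member as log10(CPM + 1), by colour, in mesenchymal cells, erythroid cells with and without progenitor markers (split below) and B-lineage cells of each mouse, with S members above the white line and G2M members below it. The mesenchymal columns are darkest, and Pcna and Slbp stand out in them at 59.1 to 73.4 CPM.

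Single cells differed widely within each blood group. The median score was 0.592% in young erythroid cells (quartiles 0.234 and 1.188) and 1.055% in old ones (0.401 and 1.454). In B-lineage cells it was 0.959% (0.106 and 1.524) in the young and 0.129% (0.030 and 1.191) in the old mouse. In mesenchymal cells it was 0.023% and 0.024%, and 1917 young (22.8%) and 584 old mesenchymal cells (13.4%) had no member UMI at all.

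To compare cells at equal depth, each was thinned to 2000 UMIs, and cells with at least 6 member UMIs (0.3%) were counted as high. High cells were 411 of 568 in young (72.4%, 68.5 to 76.0) and 358 of 446 in old erythroid cells (80.3%, 76.3 to 83.9). They were 235 of 333 in young (70.6%, 65.4 to 75.4) and 24 of 59 in old B-lineage cells (40.7%, 28.1 to 54.3). In mesenchymal cells they were 20 of 7876 (0.25%, 0.16 to 0.39) and 15 of 4048 (0.37%, 0.21 to 0.61). Among neutrophil-marker barcodes high cells were 0 of 94 in the young, where a count of 0 allows up to 3.19%. They were 5 of 263 among old barcodes (1.90%, 0.62 to 4.38), a share above that of old mesenchymal cells. Cells too shallow for thinning numbered 14 and 26 erythroid, 39 and 3 B-lineage and 534 and 321 mesenchymal cells. Without thinning the shares were 71.5% and 78.5% of erythroid, 71.2% and 42.4% of B-lineage and 0.25% and 0.35% of mesenchymal cells. The high class is a range of a score and not a cell type. Near its limit, with 4 to 5 or with 6 to 7 UMIs, lay 47 and 45 young and 29 and 19 old erythroid cells, and 46 and 6 young and 20 and 2 old mesenchymal cells.

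High cells of every group expressed both phases. The median share of S members among their member UMIs was 43.0% and 39.2% in erythroid, 42.6% and 39.97% in B-lineage and 16.53% and 9.18% in mesenchymal cells, the young mouse given before the old. More S than G2M UMIs were found in 139 of 411 and 93 of 358 erythroid, 96 of 235 and 8 of 24 B-lineage and 6 of 20 and 2 of 15 mesenchymal cells. Mki67 UMIs were found in 95.4% and 98.3% of the erythroid and in 95.3% and 95.8% of the B-lineage high cells. Mki67 is itself a member and counts toward the high class, so these shares are no separate check of that class. Below the limit Mki67 UMIs were still found in 47.1% of young and 52.3% of old erythroid cells. B-lineage cells below the limit also had them less often than high ones in both mice. No phase of the cycle was called for single cells.

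**Figure D2:**
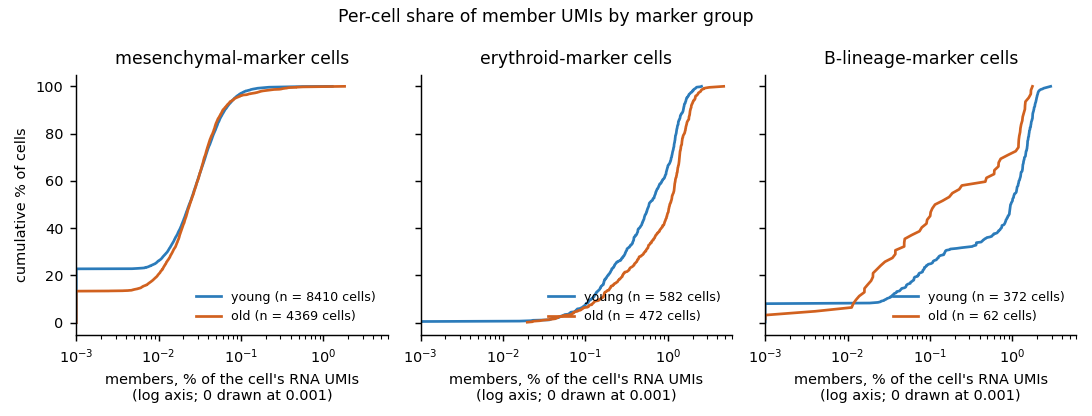
Cumulative percentage of cells against the score (percent of RNA UMIs in members, log axis, with cells at 0 drawn at the left edge) in mesenchymal, erythroid and B-lineage cells, 1 line per mouse. The mesenchymal lines lie far to the left with medians of 0.023% and 0.024%, and the B-lineage lines of the mice part, with medians of 0.959% and 0.129%.

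The groups were compared on UMIs summed per mouse and group, 8 sums, with edgeR's quasi-likelihood test, Benjamini-Hochberg adjustment over all 14005 genes and the mouse as a block. In bulk sums of this kind, more cells in cycle and more member RNA per cycling cell cannot be told apart. All 40 members were higher in erythroid than in mesenchymal cells, where 31.2% of all genes tested were. The median difference of the members was 5.54 on the log2 scale, 4.66 for S and 5.72 for G2M members, against -0.15 for all genes.

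The replication members were all higher in that comparison. Pcna stood at 370.6 and 462.1 CPM in young and old erythroid cells with a log2 difference of 3.11 (SE 0.37, adjusted p 5.74e-05). Mcm7 stood at 257.2 and 328.1 CPM, against 16.01 and 16.98 CPM in mesenchymal cells, a difference of 4.49 (SE 0.39, adjusted p 9.53e-06). The other helicase subunits Mcm2 to Mcm6 differed by 3.39 (Mcm4) to 6.12 (Mcm5). Rrm2, the small subunit of ribonucleotide reductase, which makes deoxynucleotides, stood at 214.7 and 371.6 CPM against 3.95 and 4.41 CPM and differed by 6.45 (SE 0.62, adjusted p 1.61e-05). Its partner Rrm1, with 17.2 and 17.7 CPM in mesenchymal cells, differed by 4.22. Slbp had the smallest difference of all members, 2.33 (SE 0.41, adjusted p 0.000685), from 73.4 and 65.2 CPM to 241.2 and 308.2 CPM. The erythroid and mesenchymal values did not overlap for any of these genes.

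G2M members had the larger median. Mki67 stood at 693.5 and 1118 CPM in erythroid against 8.86 and 15.9 CPM in mesenchymal cells, a difference of 6.53 on the log2 scale (SE 0.50, adjusted p 4.17e-06) and the largest of the members. Top2a, the topoisomerase that untangles sister chromatids, stood at 465.3 and 535.2 CPM against 7.62 and 12.3 CPM and differed by 5.97 (SE 0.47, adjusted p 5.45e-06). Birc5, the survivin subunit of the chromosomal passenger complex, stood at 271.9 and 361.0 CPM against 4.06 and 5.75 CPM and differed by 6.35 (SE 0.52, adjusted p 6.53e-06). Ube2c, the ubiquitin-conjugating enzyme of the anaphase-promoting complex, stood at 257.6 and 280.7 CPM against 2.91 and 7.70 CPM and differed by 5.96 (SE 0.69, adjusted p 5.2e-05). The mitotic kinase Plk1 differed by 6.30 and the spindle checkpoint kinase Bub1 by 5.97.

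B-lineage cells gave the same count, with 40 of 40 members higher than in mesenchymal cells by edgeR's test, where 22.4% of all genes were. The median was 5.01 on the log2 scale, with 5.62 from the young mouse alone and 3.85 from the old. Top2a stood at 1481 CPM in young and 428.1 CPM in old B-lineage cells and differed by 6.72 (SE 0.50, adjusted p 8.71e-06). Rrm2 stood at 702.5 and 189.2 CPM and differed by 6.93 (SE 0.63, adjusted p 2.56e-05). Mki67 stood at 1116 and 396.9 CPM and differed by 6.17 (SE 0.49, adjusted p 1.29e-05). Old values lay below the young ones for each of these genes, and still above both mesenchymal values.
The remaining genes with most UMIs behaved alike. Birc5 stood at 429.6 and 114.4 CPM and differed by 5.89 (SE 0.52, adjusted p 2.03e-05). Ube2c stood at 344.6 and 122.8 CPM and differed by 5.58 (SE 0.69, adjusted p 0.00015). Mcm7 stood at 270.9 and 82.4 CPM and differed by 3.58 (SE 0.38, adjusted p 6.26e-05). Pcna, at 719.2 and 243.9 CPM, and Slbp, at 495.0 and 138.8 CPM, had the smaller differences, as they had in erythroid cells. They came to 3.16 (SE 0.37, adjusted p 0.000105) and 2.34 (SE 0.41, adjusted p 0.00124).

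Lists of further cell cycle genes went the same way, with some exceptions. All 30 other replication genes were higher in erythroid than in mesenchymal cells, led by the origin recognition subunit Orc1 (6.64 on the log2 scale), the licensing inhibitor Gmnn (6.16) and the repair gene Brca1 (6.09). Of 30 other mitosis genes 29 were higher, led by the condensin subunit Ncapg (6.54) and the kinetochore scaffold Knl1 (6.30). The securin gene Pttg1 did not pass at 0.46 (adjusted p 0.57). B-lineage cells gave counts of 30 and 29, again without Pttg1 (1.05). Of 14 E2F, MYB and FOXM1 regulators, 13 were higher in erythroid cells, led by the repressor E2f8 (7.13), Mybl2, which encodes B-Myb (6.28), and E2f2 (5.94), and the repressor E2f5 was lower (-1.84). In B-lineage cells 12 were higher, led by E2f2 (7.11).

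G1 genes and inhibitors did not move as 1 block. Among 7 G1 cyclins and kinases, 5 were higher in erythroid cells, among them Cdk6 (3.61) and the cyclin gene Ccnd3 (2.62), while Ccnd1 was lower (-2.02). In B-lineage cells Cdk2 was higher (3.01) and Ccnd1 lower (-4.93). Of 10 CDK inhibitors and pocket proteins, the retinoblastoma family genes Rbl1 (2.97) and Rb1 (2.53) were higher in erythroid cells and 5 genes were lower. Cdkn1c, the gene of p57, stood at 4.1 and 2.8 CPM in erythroid and at 201 and 205 CPM in mesenchymal cells, a difference of -5.60. Cdkn1a, the gene of p21, stood at 6.0 and 4.5 CPM against 282 and 211 CPM, a difference of -5.22. Cdkn2a, the gene of p16, had 0 UMIs in erythroid cells of both mice and was at least 9.90-fold lower in the young and 42.9-fold lower in the old mouse, with 3 counts per library as the floor. In B-lineage cells 5 of these genes were higher and 4 lower, Cdkn1c among the latter (-5.77).

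The progenitor group, 21 barcodes in all, held few UMIs of several S members. Against mesenchymal cells 36 of 40 members were higher by edgeR's test, where 18.3% of all genes were, and 12 passed with cells thinned to 2000 UMIs. All 23 G2M members were among them, and Ube2c stood at 767 and 258 CPM, a difference of 6.74 (SE 0.73, adjusted p 0.000147). Slbp did not pass, at 86.0 and 150 CPM and a difference of 1.02 (adjusted p 0.0921). The cyclin E genes Ccne1 and Ccne2 and the origin licensing gene Cdc6 did not pass either, with 0 or 1 UMI per mouse. Against erythroid cells 12 members were lower, where 6.09% of all genes were, and 11 of these were S members (Mcm2, Mcm4, Mcm5, Mcm7, Pcna, Rrm1, Rrm2, Cdc6, Uhrf1, Ccne1 and Ccne2), the other being Mki67. Mki67 stood at 182.9 and 168.0 CPM in progenitor barcodes and differed by -2.46. Against B-lineage cells 11 members were lower, where 6.53% of all genes were. Birc5 was not among them, at 258.2 and 168.0 CPM against 429.6 and 114.4 CPM (-0.26, adjusted p 0.753). The order of the marker groups decides which cells enter here. With progenitor markers taken before erythroid ones, a step chosen after seeing the data, 39 members were lower than in erythroid cells, and with thinned cells 25 passed.

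The count of members that passed between erythroid and B-lineage cells depended on the processing. By edgeR's test 3 of 40 members (7.5%) were higher in erythroid cells, a smaller share than the 13.9% of all genes. By the same test 0 were lower, also at an unadjusted p under 0.05 and with DESeq2. Instead of 3, 14 passed with thinned cells, 20 with progenitor markers taken first, 10 with no filter on low counts and 1 with DESeq2 or library size alone. Ccne1, the activator of CDK2 at the start of S phase, stood at 80.6 and 109.7 CPM in erythroid against 39.3 and 32.0 CPM in B-lineage cells, a difference of 1.43 on the log2 scale (SE 0.25, adjusted p 0.00283). Cdc6 stood at 82.5 and 112.4 CPM against 60.5 and 20.2 CPM, a difference of 1.36 (SE 0.37, adjusted p 0.0223). Mcm4 stood at 147 and 176 CPM against 130 and 51.3 CPM, a difference of 0.96 (SE 0.29, adjusted p 0.0354). For Ccne1 the groups lay well apart in both mice, while young Mcm4 levels lay near each other. The old B-lineage sum includes 12 cells with plasma cell genes, which held 62.2% of its RNA UMIs. Their part in these values was not tested. Of the other members 24 had opposite signs in the mice. The young mouse alone gave a median of -0.34 and the old one alone 1.07, and this difference between the mice was not tested.

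Within the erythroid group, cells without progenitor markers held more member RNA. Cells with at least 3 progenitor genes (287 young, 138 old) held 3801 and 3290 member CPM, and cells without them (295 and 334) held 11398 and 12597 CPM. High cells at 2000 UMIs were 144 of 287 (50.2%) and 57 of 138 (41.3%) with the markers, against 267 of 281 (95.02%) and 301 of 308 (97.7%) without. The cells without progenitor markers were also the ones with hemoglobin and other late erythroid genes, which took 4.70% and 8.37% of their UMIs against 0.0260% and 0.0161%. In cells with the markers these late genes stood at 260 and 161 CPM, below the 764 and 175 CPM of mesenchymal cells. Further progenitor genes, not used to set the groups, parted the classes far less. They stood at 294 and 366 CPM without the markers against 405 and 393 CPM with them. The median depth of cells without the markers was lower, 10632 and 13363.5 against 26356 and 34666 UMIs. With every cell thinned to 2000 UMIs the median difference of the members below was 2.17 on the log2 scale, and 39 passed.

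All 40 members were higher in the cells without progenitor markers by edgeR's test on 4 sums, where 27.9% of 10594 genes were, a comparison chosen after seeing the data. The median was 2.02 on the log2 scale, 1.56 for S and 2.25 for G2M members, and values ran from 0.72 (Mcm6) to 3.38 (Rrm2). Rrm2 stood at 499 and 643 CPM without the markers against 73.0 and 54.2 CPM with them (SE 0.20, adjusted p 2.51e-06). Mki67 stood at 1511 and 1830 CPM against 286 and 284 CPM, a difference of 2.77 (SE 0.13, adjusted p 1.06e-06). Birc5 stood at 560 and 597 CPM against 128 and 84.7 CPM, a difference of 2.68 (SE 0.18, adjusted p 4.46e-06). For each of these genes both values without the markers lay above both values with them.
Top2a stood at 833 and 800 CPM against 282 and 225 CPM, a difference of 1.92 (SE 0.12, adjusted p 4.04e-06). Ube2c stood at 434 and 430 CPM against 170 and 106 CPM, a difference of 1.90 (SE 0.17, adjusted p 2.54e-05). Slbp stood at 431 and 468 CPM against 147 and 121 CPM, a difference of 1.97 (SE 0.14, adjusted p 6.54e-06). These genes differed by less than Rrm2. Pcna stood at 612 and 667 CPM against 250 and 222 CPM, a difference of 1.66 (SE 0.13, adjusted p 9.63e-06). Mcm7 stood at 406 and 453 CPM against 183 and 182 CPM, a difference of 1.46 (SE 0.12, adjusted p 1.47e-05). Ccne1 (2.72) and Ccne2 (3.04), which bring CDK2 to the origins, lay toward the upper end of the S members, and the helicase subunit Mcm6 and the helicase partner Gins2 (0.75) at the lower end.

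The cyclin D genes differed in opposite directions across the same split. Ccnd3 was higher in cells without progenitor markers, at 409 and 541 against 56.3 and 49.8 CPM, a difference of 3.36 on the log2 scale (SE 0.17, adjusted p 1.6e-06). Ccnd2 was lower, at 8.0 and 3.5 against 146 and 153 CPM (-4.56, SE 0.25, adjusted p 2.1e-06). Cdk6, a kinase that both serve, was lower, at 54.4 and 32.5 against 395 and 343 CPM (-2.90, SE 0.15, adjusted p 1.8e-06), and Cdk4 was lower by less (-0.40). Of the E2F, MYB and FOXM1 list 11 of 14 were higher, led by E2f2 (4.60), at 100 and 126 against 5.6 and 4.8 CPM. The repressors E2f5 (-1.30) and E2f6 (-0.74) were lower. All 30 other replication genes were higher, led by Tk1 (2.45), and 28 of 30 other mitosis genes, led by Prc1 (2.81), with Pttg1 (0.34) and Bub3 (0.30) not passing. Rb1 (2.76) and the CDK inhibitor Cdkn2c (1.79) were higher too, so genes that drive the cycle and genes that restrain it stood on the same side.

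CD24 antibody counts ran along the same line. In quartiles of antibody count from low to high, members stood at 2765, 3917, 8985 and 11455 CPM in young and, in the same order, at 2775, 6063, 13253 and 13106 CPM in old erythroid cells. High cells were 46 of 142, 87 of 143, 133 of 138 and 145 of 145 in the young and 37 of 104, 93 of 112, 113 of 114 and 115 of 116 in the old mouse. The lowest quartile thus held the least member RNA in both mice, while the upper pair of quartiles lay close together in the old mouse. The share of cells with progenitor markers fell over the same quartiles, from 93.2% to 3.42% and from 77.1% to 1.69%. Across cells, Spearman's rank correlation between score and antibody count was 0.78 (n = 582) and 0.69 (n = 472). It was 0.44 and 0.46 among cells with progenitor markers and 0.31 and 0.34 among cells without. Cells of 1 mouse are not replicates, and these values share a library. Depth moved with both measures inside these classes. Between antibody count and RNA UMIs the rank correlation was -0.16 and -0.09 over the whole group, 0.60 and 0.48 with progenitor markers and 0.39 and 0.38 without. Between score and RNA UMIs it was 0.58 and 0.59 with the markers. After thinning to 2000 UMIs, score and antibody count gave 0.76 and 0.70 over the group, 0.37 and 0.40 with the markers and 0.24 and 0.29 without.

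Split at the median antibody count of each library, a comparison chosen after seeing the data, erythroid cells above it were higher in 40 of 40 members by edgeR's test, where 21.6% of all genes were. The median was 1.90 on the log2 scale. Rrm2 stood at 428.2 and 674.7 CPM above against 62.2 and 128.5 CPM below the median, the largest difference at 2.80 (SE 0.13, adjusted p 0.000318). Mki67 stood at 1304 and 1929 CPM against 257.4 and 467.3 CPM, a difference of 2.41 (SE 0.10, adjusted p 0.00029). Mcm6 stood at 289.2 and 339.7 CPM against 221.1 and 243.5 CPM, the smallest difference at 0.65 (SE 0.12, adjusted p 0.00804). The members at either end were those of the progenitor marker split, and the splits share most of their cells.

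**Figure D3:**
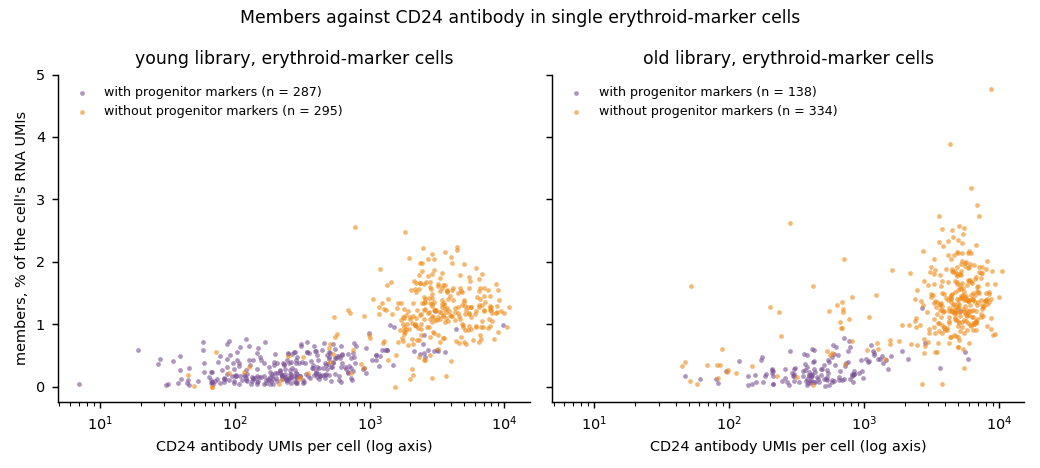
Score (percent of RNA UMIs in members) against CD24 antibody UMIs (log axis) in single erythroid cells of each mouse, 1 point per cell, coloured by progenitor markers. Cells with progenitor markers (287 and 138) lie mostly at low score and low antibody count, and cells without them (295 and 334) mostly at high score and high antibody count.

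In B-lineage cells members stood at 6658, 10722, 10954 and 12759 CPM over the young and at 940, 1504, 7586 and 12150 CPM over the old quartiles. Old quartiles hold 15 or 16 cells, and 11 of the 16 lowest had at least 3 plasma cell genes. In mesenchymal cells all members together had no such order, with 286, 293, 340 and 325 CPM in the young and 449, 287, 331 and 372 CPM in the old mouse. The rank correlation of score and antibody count was 0.02 and -0.01. G2M members alone stood at 28.3, 36.4, 88.3 and 81.6 CPM in the young and at 189, 50.1, 86.2 and 146 CPM in the old mouse.

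The division the study asked about, CD24+ against CD24- cells, was then read for the module. In its cell cycle analysis of cells sorted from aged mice, the study found a smaller share of CD24+ than of CD24- cells in G2/M phase. It describes the CD24+ cells as largely growth-arrested. In culture it also reported reduced colony formation by CD24+ cells and staining for senescence-associated β-galactosidase. The cell cycle analysis placed cells in phases, whereas the values here are member RNA of a young and an old mouse, so the results are not of like measure. Cells above an antibody threshold set in each library (312 and 396 UMIs) were called CD24+, 1573 young and 760 old cells. Members stood at 5139 and 6859 CPM in CD24+ and at 511 and 440 CPM in CD24- cells. By edgeR's test all 40 were higher in CD24+ cells, where 28.5% of all genes were, with a median of 4.38 on the log2 scale. Rrm2 stood at 219 and 313 CPM against 6.90 and 5.59 CPM, a difference of 5.65 (SE 0.25, adjusted p 1.69e-26). The size of such p-values depended strongly on the settings of edgeR's test, though all 40 members passed in each. The smallest adjusted p of the members ran from 0.0021 without the mouse as a block to 4.98e-151 with cells thinned to 2000 UMIs. Mki67 stood at 586 and 952 CPM against 20.8 and 21.3 CPM, a difference of 5.41 (SE 0.30, adjusted p 5.95e-23). Pcna stood at 319 and 384 CPM against 72.4 and 63.6 CPM, a difference of 2.63 (SE 0.23, adjusted p 5.86e-15). Slbp had the smallest difference, 1.99 (SE 0.21, adjusted p 7.62e-12), from 77.6 and 66.6 CPM to 219 and 260 CPM. The others lay between, with Birc5 at 5.04 (SE 0.25, adjusted p 4.29e-25), Top2a at 4.81, Ube2c at 4.38 and Mcm7 at 3.41. The makeup of the cells moved with this result. Erythroid and B-lineage cells were 48.8% and 59.5% of CD24+ cells and held 91.4% and 95.3% of the member UMIs of CD24+ cells.

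Other cell cycle lists went along over all cells. All 30 replication and all 30 mitosis genes were higher in CD24+ cells, as were 13 of 14 E2F, MYB and FOXM1 regulators, led by E2f2 (5.09), with E2f5 lower (-0.71). Of the inhibitors and pocket proteins 3 were higher and 4 lower, Cdkn1c among them (-1.24).

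Within mesenchymal cells the difference between CD24+ and CD24- cells was far smaller and lay in G2M members. The CD24+ class held 659 young and 210 old cells there, and the CD24- class 7751 and 4159. S members stood at 240 against 253 CPM in the young and at 213 against 243 CPM in the old mouse, and 0 of 17 passed by edgeR's test at a median difference of 0.02, with 1 (Mcm4, lower) at an unadjusted p under 0.05 and 0 called by DESeq2. Over all 40 members, 15 had an unadjusted p under 0.05, and DESeq2 called 6. G2M members stood at 101 against 57.9 CPM and at 234 against 110 CPM, with a median difference of 0.89, and 9 of 23 were higher. These 9 of 40 members compare with 6.5% of all genes.

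Mki67 stood at 21.2 against 7.31 CPM in the young and at 28.7 against 15.03 CPM in the old mouse, a difference of 1.35 on the log2 scale (SE 0.155, adjusted p 0.000144). Ube2c stood at 7.01 against 2.39 CPM and at 19.5 against 6.90 CPM, a difference of 1.62 (SE 0.22, adjusted p 0.000454). Birc5 stood at 6.43 against 3.77 CPM and at 16.9 against 4.99 CPM, a difference of 1.37 (SE 0.28, adjusted p 0.00707). The other 6 were the mitotic kinase gene Cdk1 (1.51) and its cyclin Ccnb2 (1.60), the spindle gene Hmmr (1.41) and the kinetochore genes Cenpe (1.02), Cenpa (0.84) and Cenpf (0.74). Top2a did not pass, at 13.7 against 6.85 CPM and 11.8 against 12.4 CPM (0.65, adjusted p 0.0918), nor did Cdc20 (1.18, adjusted p 0.0532). Among the S members with most UMIs, Pcna stood at 0.09 (adjusted p 0.604), Slbp at -0.12 (adjusted p 0.505), Mcm7 at -0.23 (adjusted p 0.40) and Rrm2 at 0.42 (adjusted p 0.457). The remaining members that did not pass lay between -0.31 (Mcm4) and 1.498 (Bub1).

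Few cells carried these differences. Of 48 Ube2c UMIs in young CD24+ mesenchymal cells, 33 lay in 1 cell, and of 61 in old ones 57 lay in 1 cell. Mki67 was spread over more cells, with 145 UMIs in 56 young and 90 UMIs in 24 old cells. High cells made up 4 of 639 CD24+ (0.63%, 0.17 to 1.59) and 16 of 7237 CD24- young cells (0.22%), and 3 of 207 (1.45%, 0.30 to 4.18) and 12 of 3841 old cells (0.31%). The 20 young and 15 old high cells held 47.9% and 68.7% of the G2M UMIs of the mesenchymal group, but 3.81% and 4.17% of its S UMIs. Without them G2M members stood at 32.9 and 37.2 CPM. Erythroid gate genes stood at 13.7 against 14.5 CPM in young and 12.4 against 18.6 CPM in old CD24+ and CD24- cells, and B-lineage gate genes at 7.74 against 5.79 and 2.55 against 2.49 CPM. Gate genes of progenitors stood at 5.99 against 19.1 and 8.61 against 32.0 CPM. Erythroid check genes, hemoglobins among them and not used by the gates, stood at 109 against 846 CPM in young cells and at 259 against 169 CPM in old cells. B-lineage check genes stood at 14.9 against 7.42 and 50.1 against 41.4 CPM. Blood markers thus differed with CD24, the erythroid check genes in opposite directions in the mice, and their part in the result was not tested beyond the step that follows. With all cells that hold an erythroid or B-lineage marker UMI left out, a step chosen after seeing the data, 1 member passed. Without the mouse as a block 0 passed by edgeR's test, with 3 at an unadjusted p under 0.05.

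**Figure D4:**
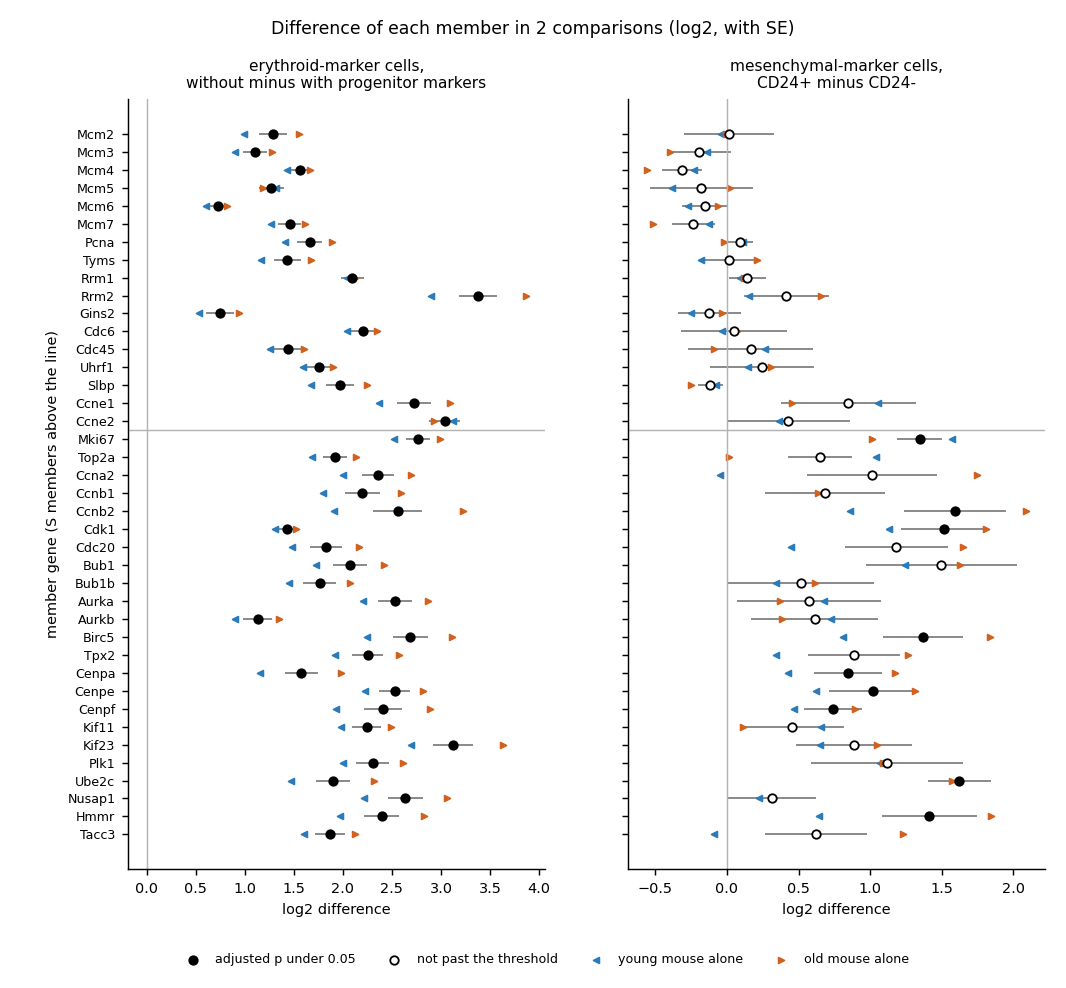
Log2 difference of each member with its standard error for erythroid cells without against with progenitor markers and for CD24+ against CD24- mesenchymal cells, with filled points where the adjusted p passed and triangles for each mouse alone. The erythroid values run from 0.72 (Mcm6) to 3.38 (Rrm2), all filled, while in mesenchymal cells the 9 filled points are G2M members.

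Cell cycle genes outside the module gave a like picture in mesenchymal cells. Of 30 mitosis genes 6 were higher, led by Cdca3 (1.42), Cks2 (1.35) and Anln (1.34), and 0 of 30 replication genes passed, also at an unadjusted p under 0.05 in edgeR or DESeq2. Ccnd1 (0.35, adjusted p 0.021) and Ccnd2 (0.42, adjusted p 0.0034) were higher. Cdkn1a was higher, at 361 against 272 CPM in the young and 302 against 205 CPM in the old mouse (0.58, adjusted p 0.00036), and Cdkn1b, the gene of p27, was lower (-0.33, adjusted p 0.025).

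The ages were set side by side without a test. In erythroid cells the old mouse held 1.31 times the member CPM of the young (1.30 to 1.33). Of the members 39 of 40 were higher in the old mouse, where 39.5% of all genes with at least 50 UMIs were. The exception was the kinase gene Aurkb, at a ratio of 0.944. By a difference of at least 1.5-fold, 9 of 40 members were higher and 0 lower, where 5.14% and 6.43% of all genes with at least 50 UMIs were. Among these were Rrm2 (1.73), Mki67 (1.61) and Cenpf (1.58). The median ratio was 1.30 for members and 0.947 for all genes. The mix of cells moved with it, since cells with progenitor markers were 287 of 582 in the young and 138 of 472 in the old group. Split by these markers, members stood at 11398 CPM in young and 12597 CPM in old cells without them and at 3801 and 3290 CPM in cells with them. Neutrophil genes stood at 12.6 CPM in young and 415.6 CPM in old erythroid cells, and their part was not tested.

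In B-lineage cells the young mouse held 3.16 times the member CPM of the old (3.06 to 3.27). All 40 members were lower in the old mouse, but only 13.8% of all genes with at least 50 UMIs were higher there. Most genes thus moved the same way as the members. At least 1.5-fold lower were 39 of 40, with 0 higher, where 64.3% and 6.34% of all genes were, so that much of the group's RNA moved with them. The exception was Ccne1 at a ratio of 0.813 (0.537 to 1.21). The median ratio was 0.309 for members and 0.564 for all genes. Cells with plasma cell genes, 12 of 62 barcodes, held 62.2% of the RNA of the old group. With those and the 1 young cell left out, a step chosen after seeing the data, members stood at 10838 and 8402 CPM, and the young level was 1.29 times the old (1.25 to 1.34).

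In mesenchymal cells the phases parted. S members were at 0.959 times the young level in the old mouse (0.936 to 0.982) and G2M members at 1.88 times (1.80 to 1.95). By the same 1.5-fold limit 21 of 40 members were higher and 0 lower, where 5.23% and 3.95% of all genes were. Hmmr (3.19), Ube2c (2.65) and Cenpf (2.47) had large ratios, whereas Pcna (0.941) and Slbp (0.889) lay near 1. The rest of the mesenchymal cells, without the high ones, stood at 243 and 233 CPM for S and at 32.9 and 37.2 CPM for G2M members. The 15 old and 20 young high cells therefore carry the larger part of the G2M difference. They held 68.7% of old and 47.9% of young G2M UMIs, with up to 840 and 382 member UMIs in a single cell. The interval of the G2M ratio treats UMIs as independent and leaves out this spread between cells. Among thinned cells, high cells were 0.37% (0.21 to 0.61) in the old and 0.25% (0.16 to 0.39) in the young mouse. These intervals overlap. Old high cells were also deeper, with a median of 31179 against 17979.5 UMIs.

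**Figure D5:**
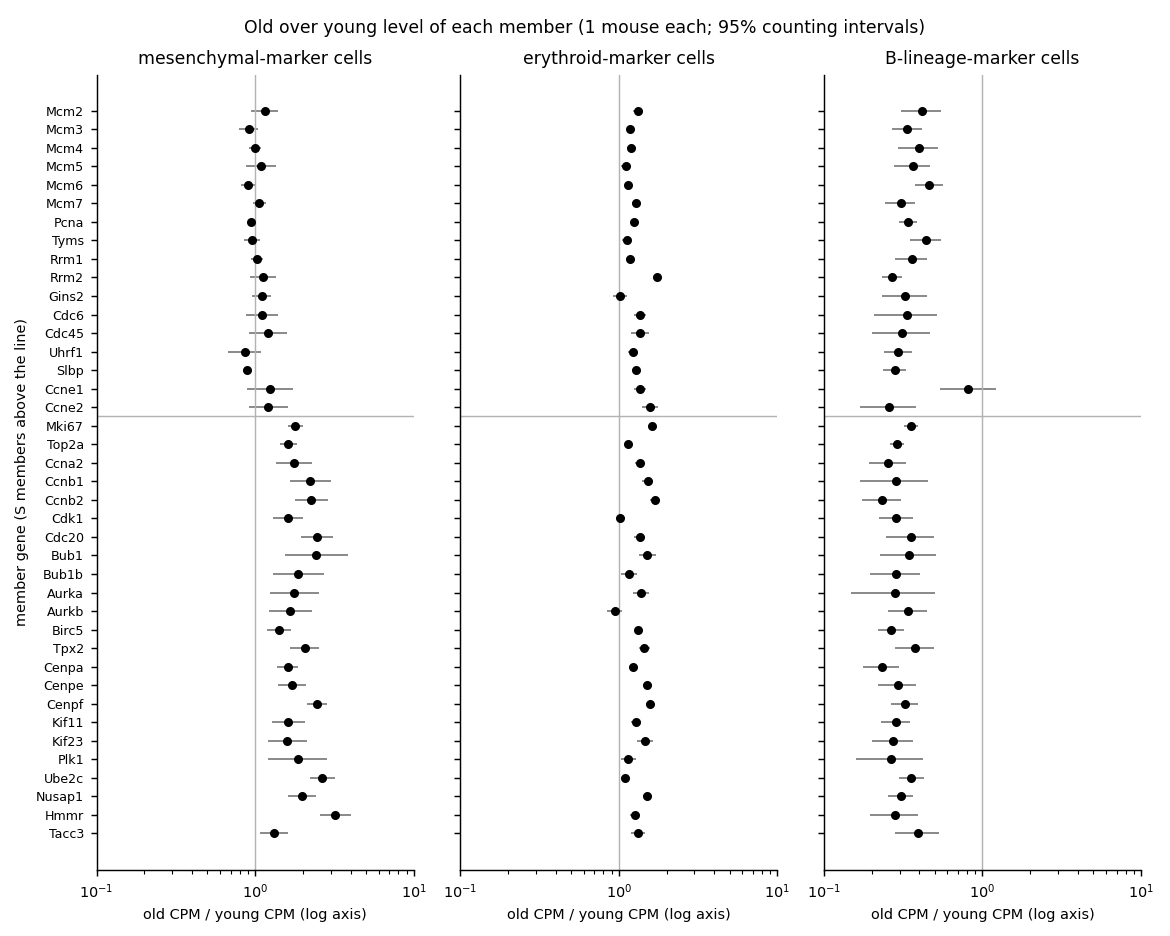
Ratio of old to young CPM for each member (log axis) in mesenchymal, erythroid and B-lineage cells, with 95% intervals for counting error and a line at 1. In erythroid cells 39 of 40 lie above 1 and in B-lineage cells all lie below 1. Of all genes with at least 50 UMIs, 39.5% and 13.8% lie above 1 in these groups. In mesenchymal cells G2M members lie to the right of S members.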

How the data were processed

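RNA and CD24 antibody were counted together in sorted cells of femurs and tibias of 1 young and 1 old mouse. The deposited matrices hold unnormalized counts, which are the UMIs that the authors' pipeline assigned to each gene, or to the antibody, in each barcode. The matrix header names Cell Ranger 6.1.1, and the submitters' processing notes name R 4.0.3, Seurat 4.0 and build mm10. A 3' assay does not separate isoforms, and free RNA in a droplet is counted with the cell. The annotation release is not given in the sources used here.

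Members and lists were chosen with earlier results of these data known. Barcodes were filtered as in the study's methods. Doublets were predicted per library (scanpy 1.11.5, Scrublet, seed 1) and kept. CD24+ cells had an antibody count above the Otsu threshold of log(1 + count) of their library, since the study gives none. CPM scales the UMIs of a group to a common total.

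UMIs were summed per mouse and group and tested with edgeR 4.0.16 (quasi-likelihood F test, TMM, filterByExpr, two-sided, R 4.3.3, limma 3.58.1) in 10 comparisons, 8 planned and 2 added after seeing the data. The mouse entered as a block because its sums are parts of the same animal, and this gives the pairing. Fits of 4 sums left 1 residual degree of freedom and the fit of 8 sums left 3, so the spread of a gene is partly borrowed from other genes, and p-values measure only the spread between these sums of 2 mice. A p-value is adjusted over all genes of its fit. The test was tried on simulated counts. The genes given in full were the 4 S and 4 G2M members with most UMIs over both libraries and members that did not pass or moved against the median, and of the other lists those against the majority of their list and up to 3 with large changes. Alternatives were DESeq2 1.42.0, other scaling, other filters, thinning, other thresholds, and each mouse alone. Shares and sums have exact Clopper-Pearson and Poisson intervals, and a count of 0 allows up to 3 counts. Python 3.11.15, NumPy 2.4.6, SciPy 1.17.1, pandas 2.3.3 and matplotlib 3.10.9 were used.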

Additional observations from a re-analysis of the deposited data

Results flagged for a closer look

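Member RNA also lay in barcodes outside the marker groups. In barcodes removed by the filter members stood at 2735 CPM in the young mouse (4374 UMIs in 1308 barcodes) and at 3970 CPM in the old mouse (7453 UMIs in 1122 barcodes), above the mesenchymal level of either mouse. In barcodes that passed the limits of mesenchyme and blood, or of both erythroid and B-lineage cells, members stood at 3700 CPM in the young mouse (78 barcodes, 53 of them predicted doublets). In the old mouse they stood at 5237 CPM there (36 barcodes, 4 predicted doublets). Of these mixed barcodes, 66 young and 24 old ones were CD24+, and they entered the comparison of CD24+ and CD24- cells over all kept barcodes, with 5.88% and 2.77% of the member UMIs of CD24+ cells.

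Erythroid against B-lineage cells had member medians of opposite sign in the mice. The median log2 difference of the members was -0.34 in the young mouse alone and 1.07 in the old mouse alone, and this difference was not tested. The B-lineage group of the old mouse held 12 cells with plasma cell genes among 62, and these had 62.2% of its RNA UMIs. Without them members stood at 8402 CPM in old B-lineage cells (8136 to 8674), against 8311 CPM in old erythroid cells, so the old difference in member CPM was within counting error.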

How the results depend on the processing

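Of the counts, ratios and shares that answer a comparison, 121 recomputed values kept their side or stayed within the set limits and 36 moved. The cause of the moves was not tested. Beside the main 9 members, the CD24 comparison of mesenchymal cells called 1 with antibody per RNA UMI, 3 with a threshold set over mesenchymal cells, 1 with thinned cells (28 tested), 1 without blood-marker UMIs and 0 without the block for the mouse, where 3 members had an unadjusted p under 0.05 in edgeR; DESeq2 called 6. Without the block, erythroid against B-lineage cells gave 5 instead of 3, and no other count of members moved by over 1.5 times. The other alternatives gave 14 there with thinned cells, 20 with progenitor markers taken first, 1 with library size alone, 1 with DESeq2 and 10 with no filter on low counts. The progenitor group gave 12 instead of 36 against mesenchymal cells with thinned cells. Against erythroid cells it gave 25 instead of 12 with thinned cells, 39 with progenitor markers first and 24 with no filter, and against B-lineage cells 20 instead of 11 with no filter. Mcm7 against B-lineage cells turned to 0.10 with progenitor markers first.

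The old-to-young ratio was 1.34 under stricter markers and 1.36 thinned in erythroid cells, 0.522 thinned in B-lineage cells (main 0.316), and 1.19 and 1.02 in mesenchymal cells (main 1.14). With limits of 3 and 12 member UMIs, high cells were 86.6% and 51.4% of young and 90.1% and 66.8% of old erythroid cells and 2.81% and 0.114% of young and 2.59% and 0.198% of old mesenchymal cells. They were 76.0% of young B-lineage cells with 3 UMIs and 75.8% of old erythroid cells at 10% mitochondrial UMIs. The ratio of the top to the bottom antibody quartile was 3.97 without doublets, 3.95 at 10% mitochondrial UMIs and 4.27 under stricter markers in young erythroid cells, and at 10% 5.27 in old erythroid and 15.6 in old B-lineage cells.

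With 1 mouse left out, no test was possible. The member median was then 5.55 or 5.14 for erythroid against mesenchymal cells and 0.35 or 0.44 for CD24+ against CD24- mesenchymal cells. Scaling moved the median of all genes in erythroid against mesenchymal cells from -0.15 to -0.56 with DESeq2's size factors and to -0.48 with library size, and the member median from 5.54 to 5.13 and 5.20. Splits of higher and lower genes moved as well. With library size alone they went from 4624 and 4708 to 3112 and 5118 for CD24 over all cells, from 992 and 933 to 684 and 1173 in mesenchymal cells, from 3143 and 3979 to 2013 and 4368 for B-lineage against mesenchymal cells, from 2951 and 3180 to 2334 and 4199 for the progenitor marker split, from 2292 and 2252 to 1539 and 2598 for the antibody split and from 1009 and 853 to 962 and 473 for progenitor against erythroid cells. With DESeq2's size factors they went from 4363 and 5245 to 3289 and 6227 for erythroid and from 2558 and 2623 to 2024 and 3304 for progenitor against mesenchymal cells, and from 1950 and 1809 to 1468 and 2224 for erythroid against B-lineage cells.

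The sums limit genes with few UMIs, such as Ccne2 in the progenitor group, and 2 mice limit every test. Old cells were deeper than young ones, which thinning addresses for shares.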
